A study of Mus musculus with 9 samples.

Results

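The 36 genes described here mark the neurons and glia of the enteric nervous system, the nerve network in the wall of the gut. They are 7 neuropeptide genes, 3 cholinergic genes, the nitrergic gene Nos1, the calcium-binding protein gene Calb2, 13 pan-neuronal genes, 5 genes for receptors and regulators of neural crest development, and 6 glial genes. They were chosen by symbol, and a probe belonged to a gene when its RefSeq accession maps to that symbol. Each of the 36 had at least 1 of 56 probes on the array, out of 18349 named genes with a probe. Of these, 33 passed a filter that asks for a spot signal well above background on at least 3 of 9 arrays, out of 15342 named genes that passed it. The 3 that did not pass are Gap43, a growth cone protein gene (well above background on 1 array with tumors and 1 without), Gfra2, a co-receptor of Ret (1 array, without tumors), and Cdh19, a glial cadherin gene (no array).

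The 9 single-dye arrays carried total RNA of normal colonic mucosa from outbred ICR mice. The question of the series is which genes differ between mice given butyrate, a short-chain fatty acid of bacterial fermentation, and mice not given it. All 9 samples came from mice injected under the skin with 1,2-dimethylhydrazine (DMH), a rodent colon carcinogen, in weekly doses of 20 mg/kg over 20 weeks. The groups were butyrate with tumors (3 arrays, DMH and 1.5% butyrate in the drinking water, mice that had tumors), butyrate without tumors (3 arrays, the same treatment, no tumors) and DMH (3 arrays, DMH and plain water). The labels used give no tumor status for the DMH mice, no age, and no statement that samples are separate animals, so p-values measure only the spread between these samples. Tumor status was taken from titles, descriptions and source names. A separate field of the labels has it the other way round in each of the 6 butyrate samples, so the split by tumors rests on which label is right.

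The enteric nervous system derives from neural crest cells that colonise the embryonic gut and that need Ret and Ednrb signalling to do so. Its neurons lie in a plexus between the muscle layers and in a plexus of the submucosa, and their fibres and accompanying glia run up to the epithelium. Excitatory motor neurons use acetylcholine and tachykinins, inhibitory motor neurons use nitric oxide and vasoactive intestinal peptide, and submucosal neurons that release vasoactive intestinal peptide drive secretion. A sample of mucosa holds nerve fibres and glia, and holds neuron cell bodies to the extent that deeper layers come with it.

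Levels are set to the 75th percentile of each array. The signal there was 188.0, 832.2 and 879.8 on arrays 1, 2 and 3 with tumors, 281.3, 444.3 and 416.5 on arrays 1, 2 and 3 without tumors, and 739.8 to 822.4 in DMH. Between 57.8% and 72.5% of an array's spots exceeded background well. Slide 1 held array 1 with tumors and all arrays without tumors, slide 2 the other butyrate arrays, and slides 3 and 4 the DMH arrays, which were scanned on another day. Slide, scan day and treatment therefore cannot be told apart in any comparison with DMH. Defining markers of colon epithelium (Epcam, Vil1, Krt20) were well above background on all 9 arrays, and so were those of smooth muscle (Myh11, Actg2, Des). A level below is the log2 signal of a gene's brightest probe minus the 75th percentile of its array, so 0 is the level of that percentile, and changes are differences of such levels. Levels of different genes come from different probes and are not set against each other.

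With butyrate, 7 of the 33 genes were higher than with DMH alone and 1 was lower, in a limma fit over all 21968 features with adjusted p under 0.05 as the threshold. Higher were Slc5a7, Scn7a, Penk, Nefl, Ret, Vip and Tac1, and lower was Npy. They belong to the neuropeptide, cholinergic, pan-neuronal, Ret receptor and glial genes, and neither Nos1 nor Calb2 passed the test. Over all features 9.21% were called, 5.85% higher and 3.36% lower (1285 and 738 features; 830 and 944 with normexp background correction, and 469 and 729 of 17088 in the authors' deposited values). Of the 33 genes 27 had a change above 0, and the median change was 0.93, against a median of 0.083 and 55.0% of changes above 0 over all features. At an unadjusted p under 0.05 there were 21 of the 33, against 31.2% of all features. In 10 of the 33 genes all 6 butyrate arrays lay above all 3 DMH arrays (14.5% of all features), and in 1 all lay below (11.9%). Fewer cells of a type and less RNA per cell cannot be told apart in such samples.

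These counts rest on single arrays. Without DMH array 1 they fell to 1 gene called, and without DMH array 2 or DMH array 3 to 0. Calls over all features fell there as well, from 2023 to 210, 7 and 8. The counts over the 33 genes were 4, 13 and 11 without arrays 1, 2 and 3 with tumors, and 5, 2 and 4 without arrays 1, 2 and 3 without tumors. Over all features those fits called 1632, 2868 and 3629, and 1291, 263 and 712. With slide as a random block no gene was called, while the median change over the 33 genes was 0.88. The size of this median depended on the processing. It was 0.56 under normexp, 0.64 when all probes of a gene were averaged, and 0.62 without slide 1. It was 0.08 with no scaling between arrays, where the median over all features was -0.76, against 0.083 with scaling. Quantile scaling and the authors' values (24 genes) each gave 0.93, and leaving out 1 array gave 0.79 to 1.05.

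**Figure D1:**
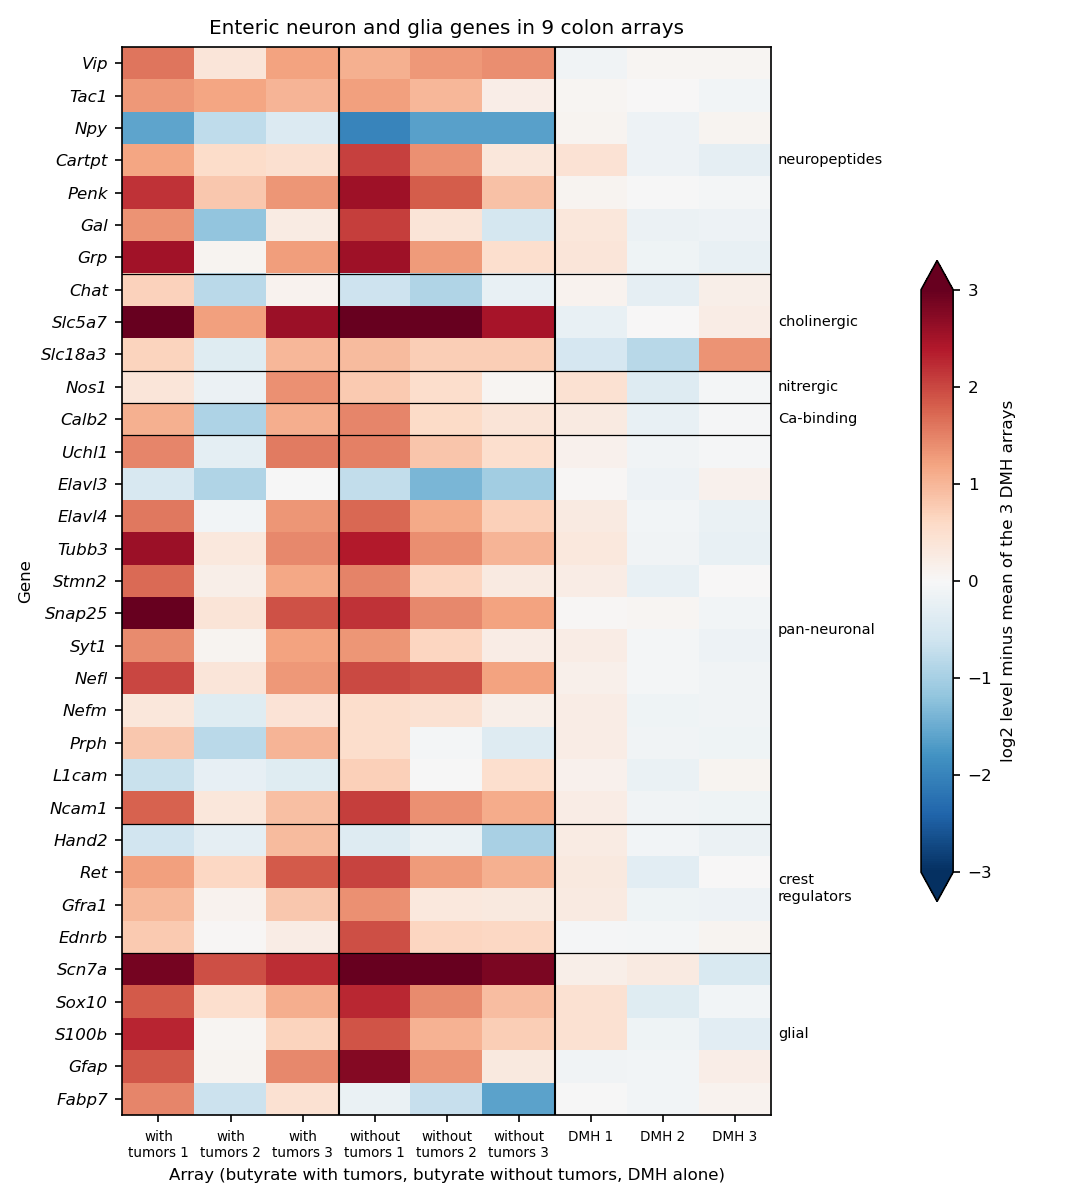
Log2 level of each of the 33 measured genes (rows, grouped by role) on each of the 9 arrays (columns), minus the mean of the 3 DMH arrays for that gene. Red is above and blue below the DMH mean; array 2 with tumors is pale in many rows, and Slc5a7 and Scn7a are red on all 6 butyrate arrays.

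The butyrate arrays differed widely among themselves. Relative to the DMH mean, the median over the 33 genes was 1.41, 0.07 and 1.09 on arrays 1, 2 and 3 with tumors, 1.50, 0.82 and 0.50 on arrays 1, 2 and 3 without tumors, and 0.21, -0.10 and -0.07 on DMH arrays 1, 2 and 3. The median near 0 on array 2 with tumors joins genes that went both ways, 11 above the highest and 11 below the lowest DMH array. It was the lowest of the 6 butyrate arrays for 25 of the 33 genes. Array 1 without tumors was the highest of the 6 for 16 genes, array 1 with tumors for 10 and array 3 with tumors for 7. The 75th percentile signal was lowest on array 1 of each butyrate group (188.0 with tumors, 281.3 without) and highest on array 3 with tumors (879.8). The part of signal strength in these levels was not tested. On arrays 1 and 3 with tumors and array 1 without tumors, 27 genes lay above the highest DMH array. For these counts on single arrays the share of all features was not computed. In 32 of the 33 genes the range over the 6 butyrate arrays was wider than over the 3 DMH arrays. A range over 6 arrays tends to exceed a range over 3, so this count says little about these genes. The median SD of the 33 genes was 0.75 with tumors, 0.51 without tumors and 0.22 in DMH, against 0.38, 0.27 and 0.12 over all features.

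Among the neuropeptide genes, Vip, Tac1 and Penk were higher with butyrate and Npy was lower, while Cartpt, Gal and Grp did not pass the test. Bases upstream of the start are shown for the 2 peptide genes that rose and have an entry, and for the one that fell, to set their promoter letters side by side. They are the 250 bases before the RefSeq start on GRCm38.p6, 5′ to 3′ on the strand of the gene, at chr10:5638968-5639217 for Vip, chr6:7554811-7555060 for Tac1 and chr6:49822460-49822709 for Npy, all on the plus strand. Capitals mark TGACG or its reverse complement CGTCA, a short form of the cyclic AMP response element (TGACGTCA), and TATAAA, the TATA box.
Vip: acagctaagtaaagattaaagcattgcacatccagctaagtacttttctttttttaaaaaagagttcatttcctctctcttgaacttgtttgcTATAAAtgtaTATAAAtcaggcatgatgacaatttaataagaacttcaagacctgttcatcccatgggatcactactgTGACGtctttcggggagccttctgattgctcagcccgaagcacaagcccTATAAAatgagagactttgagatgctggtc
Tac1: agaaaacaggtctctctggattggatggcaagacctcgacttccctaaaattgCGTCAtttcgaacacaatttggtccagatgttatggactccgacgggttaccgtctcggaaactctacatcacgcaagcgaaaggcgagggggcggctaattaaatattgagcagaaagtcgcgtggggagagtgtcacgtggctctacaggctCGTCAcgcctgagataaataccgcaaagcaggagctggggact
Npy: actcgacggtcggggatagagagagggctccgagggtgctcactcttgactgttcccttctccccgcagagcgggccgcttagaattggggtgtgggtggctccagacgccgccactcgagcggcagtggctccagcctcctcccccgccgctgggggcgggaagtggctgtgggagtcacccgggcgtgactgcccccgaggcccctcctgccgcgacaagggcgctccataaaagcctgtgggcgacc
In Vip, TGACG begins 79 bases and the TATAAA nearest the start 30 bases upstream. In Tac1, CGTCA begins 197 and 43 bases upstream. The Npy window holds neither motif. The 23 genes of this group that have an entry hold 28 windows, since some have several starts. Searched on both strands, TGACG occurs in 9 of the 23 genes and 11 of the 28 windows, and in 17.8% of 32851 promoter windows of this length. TATAAA occurs in 4 of the 23 genes (Vip, Slc5a7, Elavl3 and Prph) and 4 of the 28 windows, and in 12.4% of all windows. A full TGACGTCA occurs in Cartpt alone among the 23, in 1 of the 28 windows, and in 1.55% of all windows. A full TGACGTCA also contains TGACG. The 9 genes with the short form are Cartpt, Chat, Ednrb, Elavl4, Hand2, Nos1, Slc18a3, Tac1 and Vip. Of these, only Tac1 and Vip were called in butyrate against DMH, and Chat and Hand2 had changes below 0. Slc5a7 and Scn7a, both called higher, lack the short form. Its presence thus did not follow the direction of change. These matches describe letters and were not tested as sites.

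Vip, the gene of vasoactive intestinal peptide, a relaxant and secretory transmitter, stood at 1.25, 0.01 and 0.85 with tumors, 0.70, 0.93 and 1.04 without tumors, and -0.48, -0.31 and -0.31 in DMH. All 6 butyrate arrays lay above the DMH arrays, array 2 with tumors by the least. Its change was 1.16 ± 0.26 (SE, 6 against 3 arrays), a 2.24-fold rise, with an adjusted p of 0.0324. Tac1 encodes the tachykinins substance P and neurokinin A, and is also made by some enteroendocrine cells in mice. Its levels were 1.43, 1.32 and 1.16 with tumors, 1.36, 1.14 and 0.34 without tumors, and 0.19, 0.15 and 0.06 in DMH. The groups did not overlap, and array 3 without tumors lay nearest to the DMH arrays. Tac1 rose by 0.99 ± 0.24 (adjusted p = 0.0402).

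Penk, the precursor gene of the enkephalins, opioid peptides that slow transit, stood at 3.67, 2.31 and 2.84 with tumors, 4.04, 3.31 and 2.39 without tumors, and 1.59, 1.49 and 1.43 in DMH. Every butyrate array was above every DMH array, and array 1 was the highest of both butyrate groups. The change of 1.59 ± 0.38 (3.01-fold, adjusted p = 0.0380) came from the brighter of 2 Penk probes, and the other gave 1.04 ± 0.41 (adjusted p = 0.120). Npy, the gene of neuropeptide Y, a transmitter of enteric and sympathetic neurons, ran the other way. It stood at -4.18, -3.37 and -3.01 with tumors, -4.59, -4.24 and -4.22 without tumors, and -2.52, -2.76 and -2.52 in DMH. All 6 butyrate arrays were below the DMH arrays, and the arrays without tumors lay lowest. Npy fell by 1.33 ± 0.34 on the log2 scale (adjusted p = 0.0436), and 1 array with tumors was not well above background.

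The other 3 neuropeptide genes overlapped between butyrate and DMH. Cartpt, a peptide gene of some myenteric neurons, changed by 1.00 ± 0.38 (adjusted p = 0.114) and gave 1.02 in its other probe. Grp, the gene of gastrin-releasing peptide, an excitatory peptide, had a change of 1.36 ± 0.54 (adjusted p = 0.125), with butyrate arrays from 0.74 to 3.19 and DMH arrays from 0.43 to 1.01. Gal, the galanin gene, had the widest spread of the peptides: 2.95, 0.40 and 1.84 with tumors, 3.67, 1.97 and 1.07 without tumors, and 1.93, 1.41 and 1.44 in DMH. Its change was 0.39 ± 0.63 (adjusted p = 0.699).

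Of the 3 cholinergic genes only Slc5a7 passed the test in butyrate against DMH, where 9.21% of all features were called. Slc5a7 encodes the high-affinity transporter that returns choline to nerve endings for acetylcholine synthesis. It stood at -2.37, -4.33 and -2.98 with tumors, -1.95, -2.49 and -3.07 without tumors, and -5.78, -5.55 and -5.33 in DMH. The groups were separated on every array, with array 2 with tumors nearest to DMH, and 1 of the 3 DMH arrays was well above background. The rise was 2.69 ± 0.45, or 6.45-fold (adjusted p = 0.0206). With only 1 DMH array well above background, the size of this rise is uncertain. Slc5a7 passed the filter on dim probes mainly through butyrate arrays, which favours a higher level there. Chat, the gene of choline acetyltransferase, which makes acetylcholine, had -4.11, -5.60 and -4.70 with tumors, -5.41, -5.70 and -5.02 without tumors, and -4.69, -5.08 and -4.64 in DMH. These overlapped, with a change of -0.29 ± 0.35 (adjusted p = 0.595). Slc18a3, the gene of the vesicular acetylcholine transporter, changed by 0.62 ± 0.47 (adjusted p = 0.396), and its DMH arrays spread from -5.85 to -3.68. Chat was well above background on 6 of 9 arrays and Slc18a3 also on 6.

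Nos1, the neuronal nitric oxide synthase gene of inhibitory motor neurons, lay near background, with 4 of 9 arrays well above it. It had -6.49, -7.02 and -5.48 with tumors, -6.05, -6.33 and -6.78 without tumors, and -6.40, -7.24 and -6.90 in DMH, which overlap. The change was 0.49 ± 0.34 (adjusted p = 0.351), and at this signal a difference was not detectable. Calb2, the gene of calretinin, a calcium-binding protein of excitatory and sensory neurons, changed by 0.61 ± 0.46 (adjusted p = 0.389), and by 0.44 and -0.41 in its other probes.

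**Figure D2:**
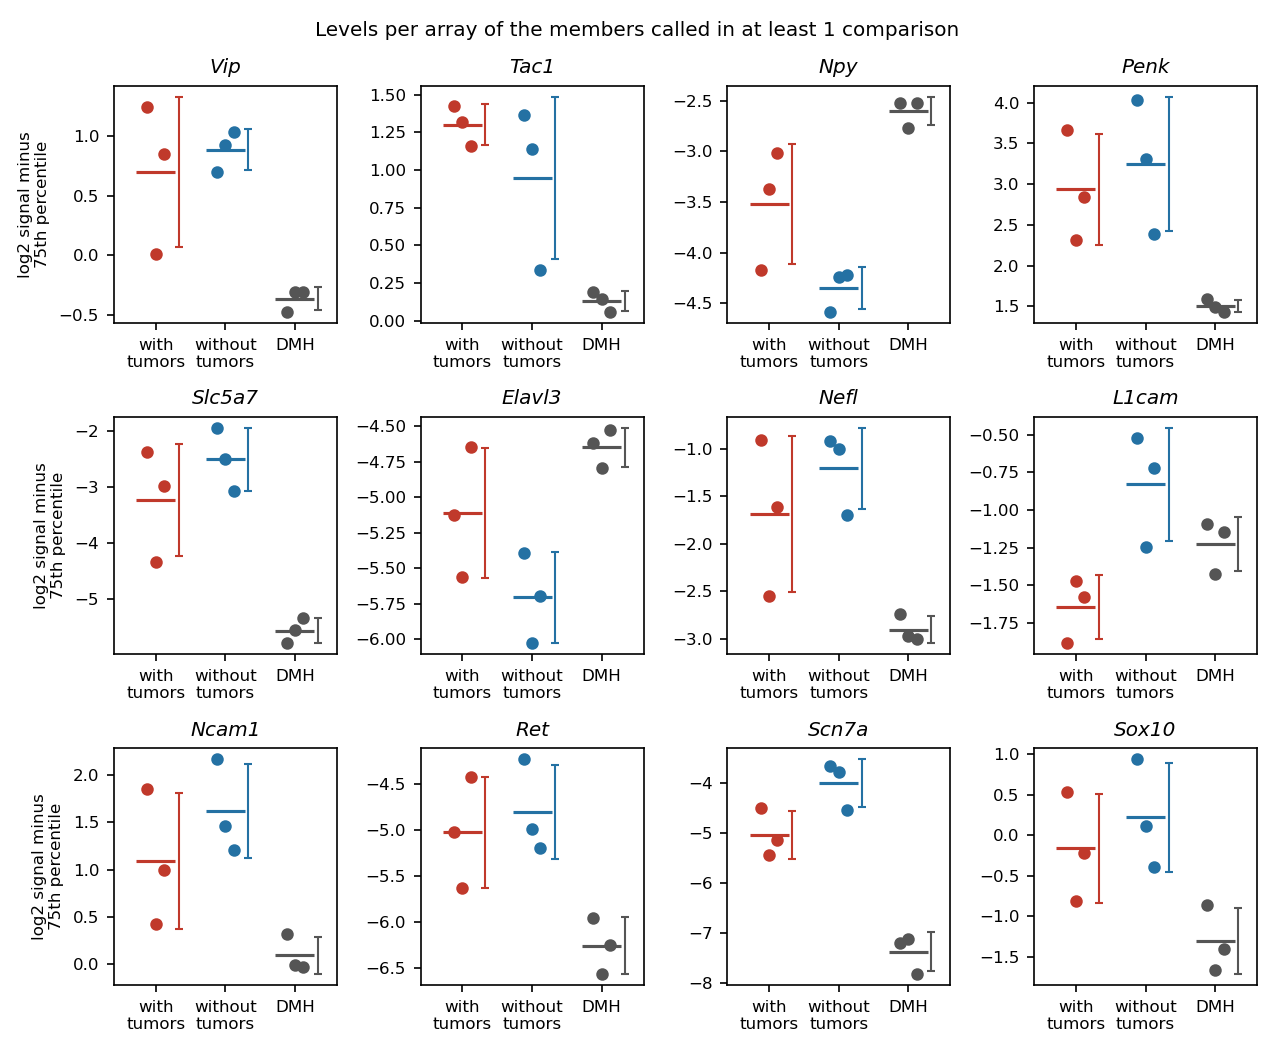
Log2 level (signal minus the 75th percentile of the array) of the 12 genes called in at least 1 of 4 comparisons, on every array, in butyrate with tumors, butyrate without tumors and DMH. Lines are group means and bars are ± SD (n = 3 arrays each); Npy and Elavl3 are the panels in which DMH lies highest.

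Nefl, the neurofilament light chain gene of axons, was the 1 of 12 measured pan-neuronal genes called in butyrate against DMH, and 10 of the 12 had a change above 0 (median 0.92). Over all features 9.21% were called, so 1 of 12 lies near that share, and 55.0% of changes were above 0. Nefl stood at -0.90, -2.55 and -1.61 with tumors, -0.92, -1.00 and -1.70 without tumors, and -2.75, -2.97 and -3.01 in DMH. All butyrate arrays lay above the DMH arrays, array 2 with tumors by the least. Nefl rose by 1.46 ± 0.36 (2.75-fold, adjusted p = 0.0396). Its partner Nefm, the medium chain, changed by 0.26 ± 0.22 (adjusted p = 0.460), and Prph, the peripherin gene of peripheral neurons, by 0.18 ± 0.39 (adjusted p = 0.779).

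Ncam1, a neural cell adhesion gene, fell just outside the threshold with 1.26 ± 0.35 (adjusted p = 0.0526), and its groups did not overlap. It had 1.86, 0.43 and 1.00 with tumors, 2.17, 1.46 and 1.21 without tumors, and 0.33, -0.01 and -0.03 in DMH. The other 5 probes of Ncam1 gave changes from -0.58 to 0.94, none of them called, so the value belongs to 1 probe. Snap25, a gene of the synaptic vesicle fusion complex, had -0.59, -4.74 and -3.21 with tumors, -2.94, -3.67 and -3.92 without tumors, and -5.09, -5.06 and -5.21 in DMH. It did not overlap with DMH, yet its butyrate arrays spread widely and the change of 1.94 ± 0.74 had an adjusted p of 0.112.

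Tubb3, a neuronal tubulin gene, had a change of 1.52 ± 0.46 (adjusted p = 0.0651). Elavl4 (1.07), Uchl1 (0.93), Stmn2 (0.91) and Syt1 (0.81), genes of a neuronal RNA-binding protein, a ubiquitin hydrolase, a microtubule regulator and a synaptic calcium sensor, had adjusted p from 0.0913 to 0.149. A dimmer probe of Elavl4 gave -0.18, and the other probes of Syt1 gave 0.27 and 2.05. Elavl3, another gene of the neuronal RNA-binding family, had a change of -0.76 ± 0.28 (adjusted p = 0.105), and L1cam, an axonal adhesion gene, of -0.01 ± 0.30 (adjusted p = 0.981).

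Ret, the receptor tyrosine kinase gene of enteric neuron precursors and adult enteric neurons, was the 1 of 4 measured receptor and regulator genes called (9.21% of all features). It stood at -5.03, -5.64 and -4.42 with tumors, -4.23, -4.99 and -5.21 without tumors, and -5.96, -6.57 and -6.25 in DMH. All butyrate arrays were above the DMH arrays, at a dim signal that was well above background on 7 of 9 arrays. Ret rose by 1.34 ± 0.31 (2.53-fold, adjusted p = 0.0361). Gfra1, its co-receptor gene for glial cell line-derived neurotrophic factor, changed by 0.64 ± 0.29 (adjusted p = 0.165). Ednrb, the endothelin receptor gene of migrating crest cells, changed by 0.71 ± 0.36 (adjusted p = 0.213), and Hand2, a transcription factor gene of neuron differentiation, by -0.25 ± 0.36 (adjusted p = 0.669).

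Scn7a, a sodium channel gene of glia that senses extracellular sodium, was the 1 of 5 measured glial genes called (9.21% of all features), and 4 of the 5 had a change above 0 (median 1.30). Its levels were -4.51, -5.45 and -5.15 with tumors, -3.67, -3.79 and -4.55 without tumors, and -7.19, -7.11 and -7.82 in DMH. The arrays without tumors were well above background (3 of 3), as was 1 of 3 with tumors and no DMH array. The fitted change was 2.85 ± 0.41 (adjusted p = 0.0154). With no DMH array and only part of the butyrate arrays well above background, the size of this change is not known. Scn7a passed the filter on dim probes through butyrate arrays alone, which favours a higher level there. Sox10, the transcription factor gene that keeps crest cells and glia in their state, had 0.54, -0.81 and -0.22 with tumors, 0.95, 0.11 and -0.39 without tumors, and -0.86, -1.66 and -1.40 in DMH. Array 2 with tumors lay just above DMH array 1, so the groups barely separated, and the change was 1.34 ± 0.38 (adjusted p = 0.0545).

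S100b, a calcium-binding protein gene of glia, changed by 1.11 ± 0.46 (adjusted p = 0.137). Gfap, the glial intermediate filament gene, changed by 1.30 ± 0.53 (adjusted p = 0.132) in its brighter probe and by -1.04 ± 0.52 (adjusted p = 0.205) in the other, so its probes disagree in sign. Fabp7, a brain-type fatty acid-binding protein gene of glial precursors, changed by -0.20 ± 0.56 (adjusted p = 0.827).

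Other genes of these cells were taken from lists that do not hold the 36. Over all features 5.85% were higher and 3.36% lower in butyrate against DMH. Of 36 measured other genes of enteric neurons 4 were higher and none lower (median 0.69). Among them were Mapt, the tau gene (0.98 ± 0.18), Syn2, a synaptic vesicle gene (1.60 ± 0.34), and Nmu, the neuromedin U gene (1.83 ± 0.44). Phox2a, a defining transcription factor gene, had 0.62 ± 0.32 (adjusted p = 0.216). Of 19 measured other glial genes 6 were higher and none lower (median 0.84). Among them were Sostdc1, a secreted Wnt and BMP antagonist gene (2.00 ± 0.48) and Sox8, a relative of Sox10 (at least 1.88-fold, no DMH array well above background). Sox8 thus passed the filter on dim probes through butyrate arrays alone. Erbb3, the neuregulin receptor gene, had -0.28 ± 0.60 (adjusted p = 0.773) and Foxd3, a crest regulator gene, 0.88 ± 0.44 (adjusted p = 0.205).

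Of 18 measured genes for receptors and effectors of the transmitters 2 were higher and none lower (median 0.72), where 9.21% of all features were called. They were Tacr1, the receptor gene for substance P (1.14 ± 0.26, adjusted p = 0.0365), and Gucy1b1, a subunit gene of the nitric oxide receptor guanylate cyclase (1.59 ± 0.42, adjusted p = 0.0462). The receptor genes for vasoactive intestinal peptide, Vipr1 and Vipr2, had 0.61 ± 0.26 (adjusted p = 0.150) and -0.52 ± 0.33 (adjusted p = 0.308). Grpr, the receptor gene for gastrin-releasing peptide, had -1.25 ± 0.35 (adjusted p = 0.0542), with no overlap between butyrate and DMH. Of 14 measured trophic ligands and partners of Ret and Ednrb 1 was higher, Gfra4, a co-receptor gene of Ret (1.94 ± 0.36, adjusted p = 0.0250), and none lower (median 0.26). Gdnf, the ligand gene of Ret and Gfra1, had -0.34 ± 0.33 (adjusted p = 0.502).

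Markers of other cells differed between butyrate and DMH as well, where 5.85% of all features were called higher and 3.36% lower. All 15 smooth muscle genes had a change above 0 (median 1.06), 2 of them called, Pgm5 (2.02 ± 0.39) and Lmod1 (1.26 ± 0.31), with 1.31 ± 0.42 for Myh11 (adjusted p = 0.0738). The smooth muscle median relative to the DMH mean was 1.54, 0.81 and 0.71 on arrays 1, 2 and 3 with tumors, 1.53, 1.38 and 0.34 on arrays 1, 2 and 3 without tumors, and -0.30 to 0.38 in DMH. Of 10 epithelial genes none was higher and 4 were lower (Krt19 -0.72, Krt18 -0.97, Epcam -0.89 and Lgals4 -1.26), with a median of -0.74. The epithelial median ran from -1.01 to -0.46 on the 6 butyrate arrays and from -0.07 to 0.09 in DMH. None of 10 enteroendocrine genes was called (2 at an unadjusted p under 0.05), and their median was -0.90. The defining markers Chga and Chgb were well above background on all 9 arrays. The part of smooth muscle, epithelium and enteroendocrine cells in the changes of the neural genes was not tested. Medians were 0.49 for 4 endothelial, 0.80 for 4 lymphocyte and -0.08 for 6 fibroblast genes, none of them called (0, 0 and 2 at an unadjusted p under 0.05).

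**Figure D3:**
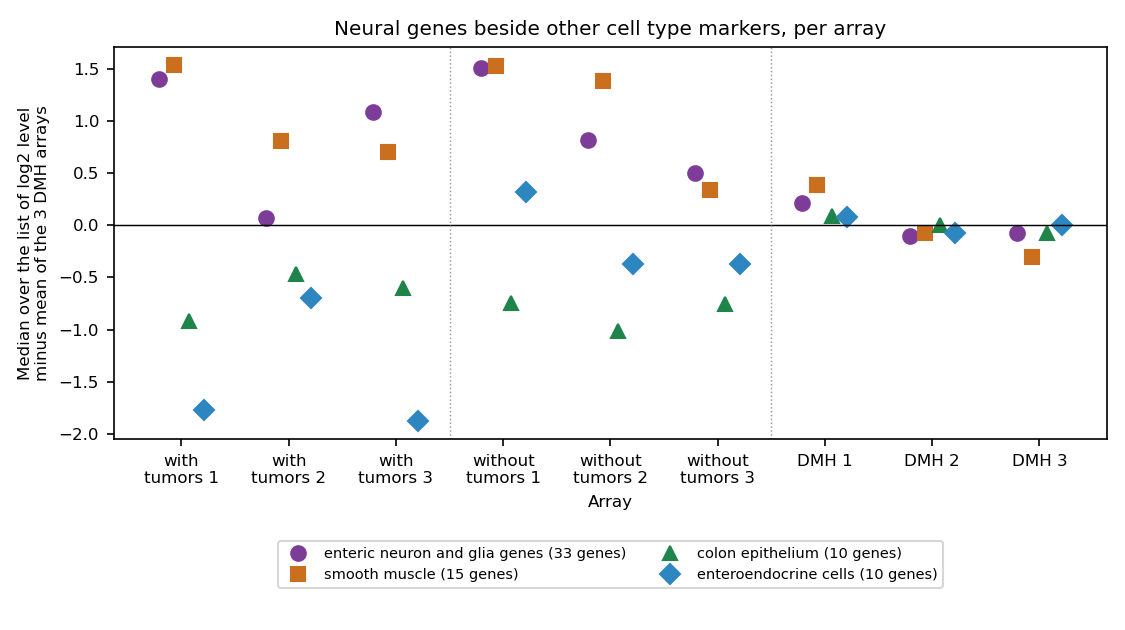
Median over each gene list of the log2 level minus the mean of the 3 DMH arrays, on each of the 9 arrays, for the 33 enteric neuron and glia genes, 15 smooth muscle, 10 colon epithelium and 10 enteroendocrine genes. The neural and smooth muscle medians are high on array 1 of both butyrate groups, where both reach 1.41 to 1.54, and the epithelial medians lie below 0 on all 6 butyrate arrays.

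Each butyrate group was then set against the same 3 DMH arrays, which both comparisons share. With tumors, 3 of the 33 genes were higher than in DMH and none lower, where 5.7% of all features were called, 3.44% higher and 2.26% lower. These were Tac1 (1.17 ± 0.26, adjusted p = 0.0421), Slc5a7 (2.33 ± 0.48, adjusted p = 0.0400) and Scn7a (fitted change 2.34 ± 0.34, adjusted p = 0.0252). Scn7a was well above background on 1 of 3 arrays with tumors and on no DMH array, so the size of its change is not known. Slc5a7 was well above background on 1 DMH array, so the size of its change is uncertain. At an unadjusted p under 0.05 there were 14 of the 33, against 29.9% of all features. The median change over the 33 was 0.92, and 11 genes lay above all DMH arrays on every array with tumors (23% of all features), while 2, Npy and L1cam, lay below all of them (19.5%). Leaving out arrays 1, 2 and 3 with tumors gave counts of 1, 10 and 0, leaving out array 2 without tumors gave 1, and leaving out DMH arrays 1, 2 and 3 gave 1, 0 and 0. Over all 21968 features the same fits, in the same order, called 1005, 1793 and 53, then 317, then 487, 4 and 4. Without slide 1, which leaves arrays 2 and 3 with tumors, Tac1, Penk and Scn7a were called.

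In the lists of other genes, 2 of 36 of enteric neurons were higher with tumors than in DMH and none lower, Syn2 (1.16 ± 0.26, adjusted p = 0.0460) and Mapt (0.93 ± 0.19, adjusted p = 0.0398). Over all features 5.7% were called, 3.44% higher and 2.26% lower, so 2 of 36 lies near the share of the whole table. None of 19 other glial genes was called in the limma fit (7 at an unadjusted p under 0.05), with a median of 0.63. Of 18 receptor and effector genes 1 was lower, Grpr (-1.72 ± 0.26, adjusted p = 0.0256), and of 14 trophic genes 1 was higher, Gfra4 (1.74 ± 0.41, adjusted p = 0.0471). All 15 smooth muscle genes had a change above 0 (median 1.00) and 11 of them lay above all DMH arrays on every array with tumors, with 1 called, Pgm5 (1.63 ± 0.38, adjusted p = 0.0471). Of 10 epithelial genes 3 were lower and none higher, Krt19 (-0.83), Lgals4 (-0.71) and Car1 (-1.90). Of 10 enteroendocrine genes 3 were also lower and none higher, Chga (-1.87), Tph1 (-1.51) and Sct (-1.76), with a median of -1.53. The part of these markers in the change of Tac1, Slc5a7 and Scn7a was not tested.

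Without tumors, 9 of the 33 genes were higher than in DMH and 2 lower, where 30.5% of all features were called, 16.6% higher and 13.8% lower. The higher genes were Scn7a (at least 2.68-fold, adjusted p = 0.00127), Slc5a7 (3.05 ± 0.48, 8.29-fold, adjusted p = 0.00460), Nefl (1.70 ± 0.39), Vip (1.25 ± 0.29), Ncam1 (1.52 ± 0.38), Ret (1.45 ± 0.36), Penk (1.74 ± 0.45), Sox10 (1.53 ± 0.43) and Tac1 (0.82 ± 0.26), the last 7 with adjusted p from 0.0158 to 0.0426. The fold of Slc5a7 is uncertain in size, since only 1 DMH array was well above background. The values of Ncam1 and Penk belong to their brightest probes. The other probes of Ncam1 gave changes from -0.82 to 0.74 in this comparison, none of them called, so its probes disagree in sign. The other probe of Penk also had a change above 0 but was not called (adjusted p = 0.120). Tac1 turned to -0.26 when no scaling between arrays was applied, under which the median of all features was -1.00 in this comparison. Npy was lower by -1.75 ± 0.29 (adjusted p = 0.00516). Elavl3 was the other lower gene. It had -5.13, -5.56 and -4.65 with tumors, -5.39, -6.03 and -5.70 without tumors, and -4.62, -4.80 and -4.53 in DMH. None of the 3 arrays without tumors was well above background and all 3 DMH arrays were, so Elavl3 was at least 1.69-fold lower without tumors (adjusted p = 0.0192). Elavl3 passed the filter on dim probes through DMH arrays and arrays with tumors, which favours a lower level without tumors.

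Slc5a7 and Npy passed the test without tumors against DMH whichever of the 9 arrays was left out. Scn7a did so too, but it had passed the filter on dim probes through butyrate arrays alone. Slc5a7 was well above background on 6 butyrate arrays and 1 DMH array, so it too passed mainly through butyrate arrays. The filter favours a higher level with butyrate, so these fits are no separate support for Scn7a or Slc5a7. Leaving out array 1 with tumors gave 17 calls over the 33 genes, leaving out arrays 1, 2 and 3 without tumors gave 5, 6 and 14, and leaving out DMH arrays 1, 2 and 3 gave 7, 3 and 4. Over all 21968 features the same fits, in the same order, called 9943, then 4510, 3979 and 5435, then 4159, 2840 and 2914. The swings are thus those of the whole table as well. In 21 of the 33 genes all 3 arrays without tumors lay above all DMH arrays, where 32.8% of all features did, and in 4 all lay below (27.2%). The median change was 0.94, and 16 of the 33 had an unadjusted p under 0.05, against 44.5% of all features. In the lists of other genes, 11 of 36 of enteric neurons were higher and none lower, among them Syn2 (2.05), Mapt (1.03) and Map2, a dendritic microtubule gene (1.12). Over all features 16.6% were higher and 13.8% lower. Of 19 other glial genes 8 were higher and none lower, among them Col28a1, a collagen gene of peripheral glia, at 1.41 and Sostdc1 at 2.19. Of 18 receptor and effector genes 3 were higher and 2 lower. The lower ones were Npy2r, a receptor gene for neuropeptide Y (at least 4.35-fold), and Pde5a, a phosphodiesterase gene that ends nitric oxide signals (at least 1.57-fold), both with no array without tumors well above background. Both thus passed the filter on dim probes through other arrays, which favours a lower level without tumors. Beside these, 7 of 15 smooth muscle genes were higher and none lower, and 1 of 10 epithelial genes was higher and 6 lower. None of 10 enteroendocrine genes was called (0 at an unadjusted p under 0.05), with a median of -0.21.

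**Figure D4:**
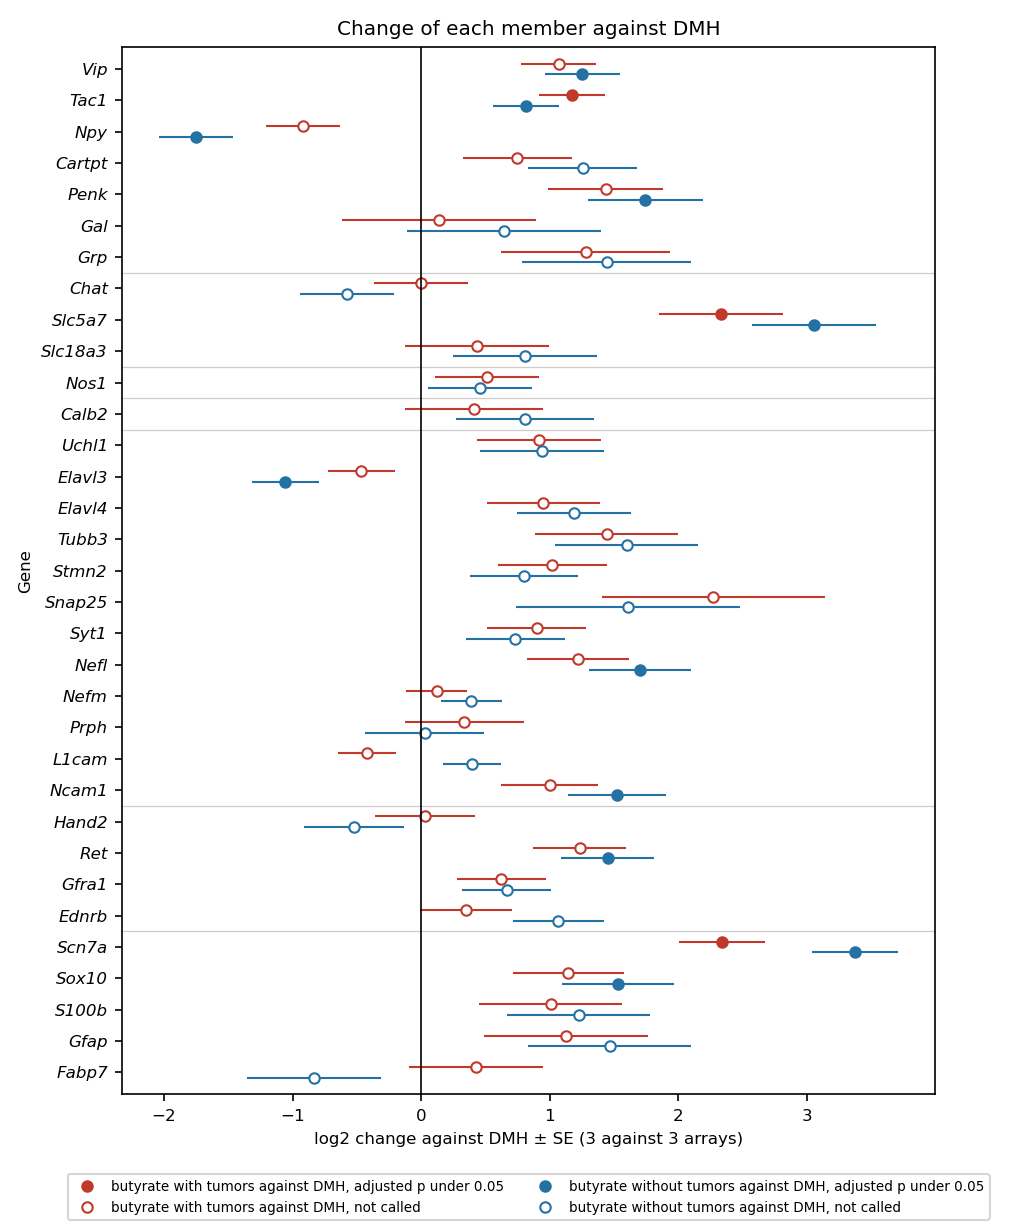
Log2 change against DMH (3 against 3 arrays) with its SE for each of the 33 genes, with tumors in red and without tumors in blue; filled points have an adjusted p under 0.05. Scn7a and Slc5a7 lie farthest to the right in both comparisons, and Npy lies below 0 in both. The Scn7a points are the fitted values, not the bound given in the text for the arrays without tumors.

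Between the butyrate groups, 1 of the 33 genes differed, L1cam, which was lower with tumors, where 13.5% of all features were called, 6.98% higher and 6.55% lower. These calls use a spread shared with the DMH arrays. The median SD over all features was 0.12 in DMH, against 0.38 with tumors and 0.27 without. With only the 2 butyrate groups in the fit, 0 of 21968 features were called. L1cam stood at -1.89, -1.47 and -1.58 with tumors, -0.52, -1.24 and -0.72 without tumors, and -1.09, -1.43 and -1.15 in DMH. All 3 arrays with tumors lay below all 3 without tumors, and the DMH arrays fell between the means of both. The difference was -0.82 ± 0.23 (adjusted p = 0.0479). It was -1.06 with slide as a fixed block (adjusted p = 0.141) and within slide 1 (array 1 with tumors against 3 without, adjusted p = 0.0761, with the lone array taken to vary like the others). Over the alternatives its adjusted p ran from 0.0105 (the authors' deposited values) to 0.938 (no scaling). It passed in 1 of the 9 fits that leave out an array, the one without array 2 without tumors (adjusted p = 0.0418). The median over the 33 genes was -0.22, and 4 genes had an unadjusted p under 0.05, against 34.6% of all features.

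The genes next in order between the butyrate groups did not pass the test. Scn7a had -1.04 ± 0.34 with tumors minus without (adjusted p = 0.0721), and Npy 0.83 ± 0.29 (adjusted p = 0.0846), with every array with tumors above every array without. Fabp7 had -2.22, -4.32 and -3.22 with tumors and -3.89, -4.36 and -5.28 without tumors, a difference of 1.26 ± 0.52 (adjusted p = 0.129). Within slide 1, where array 1 with tumors is the lone array of its group, Fabp7 (2.29, adjusted p = 0.0347), Snap25 (2.92, adjusted p = 0.00874) and Chat (1.26, adjusted p = 0.0482) stood higher on that array and L1cam was not called, which describes 1 array and not tumor status. Snap25 had -0.59 there but -4.74 on array 2 with tumors, below all 3 arrays without tumors, and over 3 against 3 arrays its difference was 0.66 ± 0.87 (adjusted p = 0.611). None of the other enteric neuron genes, other glial genes or smooth muscle genes was called between the groups (5 of 36, 3 of 19 and 0 of 15 at an unadjusted p under 0.05). Over all features 6.98% were called higher and 6.55% lower. Of the receptor and effector genes Bche, a butyrylcholinesterase gene (-1.90), and Grpr (-0.95) were lower with tumors. Of the trophic list Ece1, the endothelin-converting enzyme gene (-0.71), Gfra3, a co-receptor gene of Ret (-1.15), and Spry2, an inhibitor of receptor kinase signals (-0.62), were lower. With only the butyrate groups in the fit no feature was called, these genes included. Of 10 enteroendocrine genes 3 were lower with tumors and none higher, with Chga at -1.70, and the lymphocyte median was 2.87, 0.10 and 1.11 on arrays 1, 2 and 3 with tumors and -0.30, 0.41 and 0.41 without. The part of these markers in the neural values was not tested.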

How the data were processed

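Per the labels' protocols, Cy3-labelled cRNA was hybridised to Agilent mouse arrays. The scanner files hold intensity values that the authors deposited as gProcessedSignal, background-subtracted by Agilent Feature Extraction 10.5.1.1 per the submitters' processing notes. The column gMedianSignal and the local background gBGMedianSignal are deposited intensity too. The authors' deposited table of log2 values (21829 probes, 24 of the genes) equals log2 gProcessedSignal minus 1 constant an array (SD of the difference 0.0021 to 0.0091). Its column medians ran from 2.71 to 3.20, its direction is that of signal, genes are not centred, and what the constant is stays unknown.

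Control spots were left out (1639 of 43379 an array), outlier spots set to missing, and spots of a probe averaged. Values are log2 gProcessedSignal minus the 75th percentile of each array. RefSeq accessions gave 26925 of 41174 probes 1 symbol, and 14249 none. In the DMH files 4725 probes carry another accession, so the newer annotation of the butyrate files was used throughout. Probes well above background on at least 3 of 9 arrays with 2 values a group were kept, and the brightest one stood for a gene, which left 21968 features. limma 3.58.1 (lmFit, eBayes, 2-sided) in R 4.3.3 with Benjamini-Hochberg adjustment over all features gave the tests, with 2 groups for butyrate against DMH and 3 groups otherwise, and statmod 1.5.0 the random block. The fit was tested on simulated data. A fold of a group with no array well above background is a bound against the lowest signal well above background on each array. Arrays of the other group enter at their own values, so the bound is strict only where all of them are well above background. An adjusted p beside a bound belongs to the fitted change. The number of arrays limits the precision, and 48 of the 56 probes passed.

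The genes, lists and comparisons were chosen with earlier results of these data known. By the rule for names, all 36 genes appear, those called with full values, and of each other list up to 3 genes with the smallest p and the defining markers, of which a few are not reported here. Normexp used an offset of 50 on gMedianSignal. Figures were drawn with matplotlib 3.10.9, and promoter windows come from RefSeq (GRCm38.p6).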

Additional observations from a re-analysis of the deposited data

Results flagged for a closer look

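Tac1 on array 3 without tumors stood at 0.34, apart from the other 5 butyrate arrays, the nearest of which was at 1.14 (gap 0.735 of the range, where 0.625 is the critical value for 6 arrays). Slc18a3 on array 2 with tumors stood at -5.37, apart from the nearest butyrate array at -4.36 (gap 0.744 of the range). They are 2 of 33 genes examined this way, and chance gives such a gap in about 1 in 20. The change of L1cam against DMH differed between the groups, with tumors minus without tumors, by -0.82 (adjusted p = 0.0479), and the range over the alternatives was 0.0105 to 0.938.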

How the results depend on the processing

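The counts of genes called, given here in the order butyrate against DMH, butyrate with tumors against DMH, butyrate without tumors against DMH, and with tumors against without tumors, were 8, 3, 11 and 1. They were 0, 0, 2 and 0 with no scaling between arrays, 8, 3, 11 and 2 with quantile scaling, 7, 2, 10 and 1 with normexp, and 3, 1, 10 and 1 in the authors' deposited values. They were 2, 1, 10 and 0 with no filter on dim probes, 0, 0, 1 and 0 with slide as a random block, and 0, 0, 3 and 0 with DMH arrays 2 and 3 averaged. With the replicate block they were 4, 1, 17 and 1, where the 1 was Scn7a (-1.04, adjusted p = 0.0478) in place of L1cam (adjusted p = 0.0656). The replicate number is only a shared number, since correlations of same-numbered arrays ran from -0.01 to 0.26. Without slide 1, butyrate against DMH had 3 calls. With only the 2 groups compared in the fit, the last 3 counts were 2, 15 and 0, and for the last of these a fixed slide block gave 0 and slide 1 alone gave 3. Leaving out 1 array gave 0 to 13, 0 to 10, 3 to 17 and 0 to 2 calls. Fewer samples enter these fits and the averaged one, and the cause of the other differences was not tested. The 1 reversal was Tac1 without tumors against DMH, at -0.26 (adjusted p = 0.782) with no scaling, which moves the median of all features from 0.083 to -0.76 in butyrate against DMH. Under it the median of the 33 genes there was 0.08. Of 2964 values of single genes under alternatives, 2611 kept direction and side of the threshold, 202 lost the call, 74 gained it, 76 shifted by more than the spread of replicates, and 1 reversed. Over all features, the 2023 called in butyrate against DMH were 35 with no scaling, 1198 in the authors' values, 511 with no filter, 583 with the replicate block, 17 with the random slide block, 4 with DMH arrays averaged, 5053 with 3 groups in the fit, and 7 to 3629 with 1 array left out. Signal limits Nos1, Chat, Slc18a3, Scn7a and Elavl3 most, which were not well above background on several arrays.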
